A study of Mus musculus with 8 samples.

Results

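Hox genes code for homeodomain transcription factors that lie in 4 clusters (Hoxa, Hoxb, Hoxc and Hoxd), and the number in a gene's name gives its paralog group, the place it shares with its counterparts in the other clusters. Low numbers are known for anterior and high numbers for posterior domains of the embryo along the body axis. Adult fat, preadipocytes included, keeps a Hox pattern of the place it came from, so Hox transcripts are used as marks of fat depot position. The genes were taken by symbol, as any gene named Hoxa, Hoxb, Hoxc or Hoxd followed by a number only, with the probe set of highest mean over all arrays for each gene. Of 20740 genes with a single symbol on the array, 35 were Hox genes, carried by 50 probe sets, out of 39 Hox genes of that form in the RefSeq table. Hoxa6, Hoxb8, Hoxc11 and Hoxc12 were not analysed here.

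The arrays measured RNA of abdominal white adipose tissue from adult mice in 4 groups: rsl males and rsl females of strain B10.D2.PL (rsl/rsl), and wild type males and wild type females of strain B10.D2 (Rsl/Rsl). Rsl genes (Regulator of sex-limitation) code for zinc finger repressors, and rsl mice lack their function. All mice ate standard chow, and each group had 2 arrays, each of 400 ng of RNA pooled from 5 mice. The labels name no fat pad, so the sex of the mice and the pad that was sampled cannot be told apart, and no age beyond adult is given. A liver label is also present: the source field names liver, against the tissue field. Values are log2 signals, so a difference of 1 is a change of 2-fold.

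The pools held adipose RNA with transcripts of other tissues that differed by sex. The 19 measured adipocyte markers averaged 11.3 and 11.8 in rsl males, 11.9 and 11.9 in wild type males and 11.99 to 12.08 in the 4 female pools. The 8 liver markers averaged 4.09 and 4.26 in rsl males, 5.38 and 6.40 in wild type males and 4.34 to 4.43 in females. The 16 measured epididymis markers averaged 11.8 and 11.2 in rsl males, 7.27 and 5.01 in wild type males and 3.85 to 4.15 in females. All 16 were above background in both rsl male pools and 13 in each wild type male pool. In females 10 and 9 were above it in the rsl pools and 9 and 7 in the wild type pools. Spink12 and Gpx5 lay well above it in rsl females (6.06 and 5.82, and 5.49 and 5.60). In wild type females Gpx5 did too (5.49 and 5.47), while Spink12 was near it (3.81 and 3.80). The 16 skeletal muscle markers averaged 4.38 to 4.52 in males, 6.66 and 5.33 in rsl females and 7.09 and 6.81 in wild type females. The 10 mesothelium markers averaged 6.87 to 7.38 in males and 8.05 to 8.54 in females, the 8 smooth muscle markers 7.76 to 8.46 in males and 9.12 to 9.39 in females, and the 9 brown fat markers 4.31 to 4.59 in males and 5.14 to 5.52 in females. Averaged over strains, 12 of the 16 skeletal muscle markers, 9 of the 10 mesothelium markers, 6 of the 8 smooth muscle markers and 6 of the 9 brown fat markers were lower in males and 0 were higher, at the threshold used for the Hox genes. The part of these tissues in the Hox differences between the sexes was not tested. In bulk RNA, fewer cells of a type and less RNA per cell cannot be told apart, and the pools do not resolve single mice, so p-values measure only the spread between pools, which may be technical.

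Of the 35 Hox genes, 27 were above background, meaning that both arrays of at least 1 group lay above all 22 probe sets that serve as controls for non-specific binding on that array (highest value 3.73 to 4.01). They were 9 of 10 measured Hoxa genes (chromosome 6), 6 of 9 Hoxb genes (chromosome 11), 7 of 7 Hoxc genes (chromosome 15) and 5 of 9 Hoxd genes (chromosome 2). Hoxa13, Hoxb1, Hoxb7, Hoxb13, Hoxd1, Hoxd11, Hoxd12 and Hoxd13 were not above background in any group, which gives a bound and not a level.

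Proximal promoters of 20 of the 35 genes were in the RefSeq table of build GRCm38.p6. Those of 5 genes that the results turn on are shown here, since Hoxa9 and Hoxa10 were lower and Hoxc4 higher in males of both strains, while Hoxb4 and Hoxd4 were higher in males averaged over strains and in rsl mice but did not pass in wild type mice. Each runs from 250 bases before to 50 bases after the start of the transcript, and capitals mark TAAT on either strand, the core that homeodomains are known to bind. They lie at chr6:52227321-52227620 (Hoxa9, minus strand), chr6:52240805-52241104 (Hoxa10, minus strand, the more upstream of 2 starts), chr11:96318017-96318316 (Hoxb4, plus strand), chr15:103034145-103034444 (Hoxc4, plus strand) and chr2:74721728-74722027 (Hoxd4, plus strand).
Hoxa9: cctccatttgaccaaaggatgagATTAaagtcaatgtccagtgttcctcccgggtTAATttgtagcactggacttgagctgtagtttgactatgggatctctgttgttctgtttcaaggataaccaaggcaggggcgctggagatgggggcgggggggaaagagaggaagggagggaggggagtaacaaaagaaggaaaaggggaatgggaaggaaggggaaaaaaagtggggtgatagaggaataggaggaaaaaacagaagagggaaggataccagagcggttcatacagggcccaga
Hoxa10: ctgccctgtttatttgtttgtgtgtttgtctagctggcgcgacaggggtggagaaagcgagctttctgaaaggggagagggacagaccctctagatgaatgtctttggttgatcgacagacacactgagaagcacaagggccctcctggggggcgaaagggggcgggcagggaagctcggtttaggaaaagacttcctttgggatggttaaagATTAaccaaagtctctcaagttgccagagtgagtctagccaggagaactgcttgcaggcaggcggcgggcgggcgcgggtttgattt
Hoxb4: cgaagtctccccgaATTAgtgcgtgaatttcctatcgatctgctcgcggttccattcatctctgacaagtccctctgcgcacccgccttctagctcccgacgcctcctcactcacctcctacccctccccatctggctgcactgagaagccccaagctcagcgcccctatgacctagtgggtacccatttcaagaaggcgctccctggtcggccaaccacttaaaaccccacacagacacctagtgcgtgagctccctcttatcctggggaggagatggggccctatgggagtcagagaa
Hoxc4: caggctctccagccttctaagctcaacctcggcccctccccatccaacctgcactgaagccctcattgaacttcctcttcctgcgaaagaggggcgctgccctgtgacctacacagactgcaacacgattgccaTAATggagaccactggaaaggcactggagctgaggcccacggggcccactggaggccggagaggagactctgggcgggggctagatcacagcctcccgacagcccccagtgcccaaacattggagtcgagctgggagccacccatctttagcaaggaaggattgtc
Hoxd4: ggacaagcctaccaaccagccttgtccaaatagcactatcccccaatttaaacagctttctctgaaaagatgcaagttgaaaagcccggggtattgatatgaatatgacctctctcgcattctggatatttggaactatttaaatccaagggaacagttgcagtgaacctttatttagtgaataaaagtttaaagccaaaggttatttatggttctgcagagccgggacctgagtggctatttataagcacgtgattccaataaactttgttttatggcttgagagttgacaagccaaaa
TAAT matched 2 times in the Hoxa9 window, 1 time each in the Hoxa10, Hoxb4 and Hoxc4 windows and 0 times in the Hoxd4 window. It is common, with a match in 58.03% of all 32851 promoter windows and in 17 of the 22 windows of measured Hox genes. The motif TTTATNG, searched on both strands as a site of caudal-type and posterior Hox factors, matched 3 times in the Hoxd4 window and in no other window of a measured Hox gene, against 10.91% of all windows. The Hoxd4 and Hoxa9 windows hold 4 CG dinucleotides each and the other 3 shown 9 to 14, beside a median of 7.0 over all windows. These matches describe letters and were tied to no measurement of binding.

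The main difference was between the sexes. Its direction differed between low and high paralog numbers, but not alike in each cluster. Averaged over strains (4 male against 4 female pools), 11 Hox genes were higher and 7 lower in males at a Benjamini-Hochberg adjusted p under 0.05 in limma, with p-values adjusted over all 45037 probe sets. That is 31.4% of the 35 higher and 20.0% lower, beside 9.62% of all genes higher and 11.4% lower in males. Of the 21 genes of paralog groups 1 to 8, 10 were higher and 0 lower in males. Of the 14 genes of groups 9 to 13, 1 was higher (Hoxb9) and 7 were lower, among them Hoxd11, which was below background on every array. Within wild type mice, 3 of the 21 were higher and 0 lower, and 0 of the 14 were higher and 5 lower (2.43% and 2.79% of all genes). The median male minus female difference was 0.49 for groups 1 to 8, -0.24 for groups 9 to 13 and -0.01 over all genes. The median of groups 9 to 13 lies between Hoxd11 (-0.237) and Hoxa13 (-0.233). Both were below background on every array, so that median gives no level for the posterior genes. By cluster, 3 Hoxa genes were lower, 6 Hoxb genes were higher, 3 Hoxc genes were higher and 2 lower, and 2 Hoxd genes were higher and 2 lower. The difference was measured in separate mice in each strain, and 28 of the 35 genes had the same direction in both (Pearson r = 0.898 across genes, which are not independent). The share of all genes with the same direction was not computed, so the 28 have no background to be read against. The 35 include genes not above background in any group, and r leans on the genes with the largest differences. In rsl mice 10 Hox genes were higher and 7 lower in males (6.49% and 9.14% of all genes), and in wild type mice 3 were higher and 5 lower (2.43% and 2.79% of all genes). Of these, 8 genes passed in both strains. Signs of RNA integrity moved with sex in rsl mice, where the 3' probe sets of Gapdh exceeded the 5' ones by 0.79 and 1.03 in males against 0.66 and 0.50 in females, and those of actin by 1.16 and 1.20 in males against 1.09 and 0.95 in females. In wild type mice the actin excess was 1.06 and 0.95 in males against 0.88 and 0.89 in females. The Gapdh excess overlapped there, with 0.68 and 0.71 in males against 0.72 and 0.59 in females. The part of RNA integrity in the counts of either strain was not tested.

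**Figure D1:**
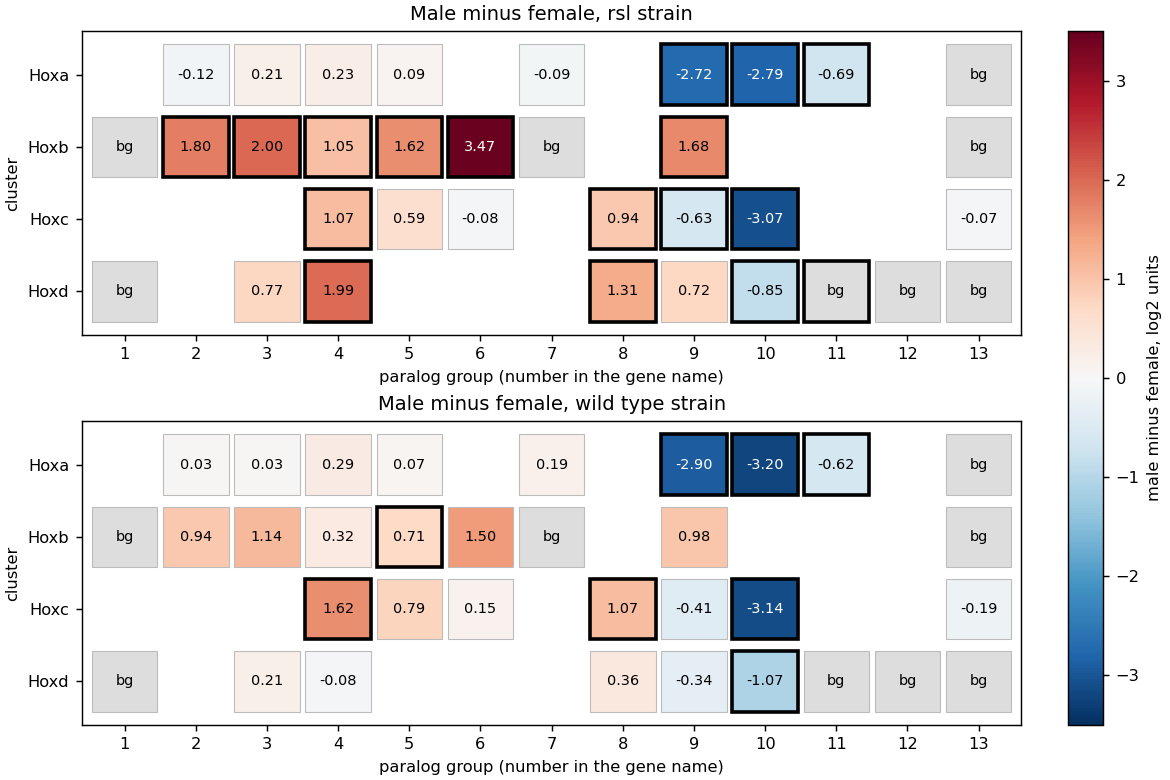
Male minus female difference (log2 units) of Hox genes in rsl mice (upper panel) and wild type mice (lower panel), by cluster and paralog group. Thick frames mark an adjusted p under 0.05, grey boxes marked bg are genes not above background, and empty places are genes that are not shown or do not exist. Hoxb genes above background, Hoxc4, Hoxc5 and Hoxc8 are red in both strains, and dark blue boxes stand at Hoxa9, Hoxa10 and Hoxc10 in both strains.

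Hoxa9, Hoxa10 and Hoxc10 were far lower in males than in females in both strains. All belong to the Abdominal-B-like Hox genes, which pattern the lower trunk, limbs and urogenital tract. Hoxc10 read 4.10 and 4.60 in rsl males and 4.498 and 4.085 in wild type males, against 7.53 and 7.32 in rsl females and 7.40 and 7.47 in wild type females. The male pools lay just above background, and no male value came within 2 log2 units of a female one. Averaged over strains, Hoxc10 was 4.32 ± 0.27 in males and 7.43 ± 0.09 in females (SD, n = 4 each), a change of -3.11 ± 0.14 (SE), or 8.62-fold (limma adjusted p = 0.000112). Hoxa10, which is also needed for the uterus and the male tract, read 4.42 and 4.76 in rsl males and 4.43 and 4.41 in wild type males, against 7.44 and 7.32 in rsl females and 7.49 and 7.75 in wild type females. Its difference was -2.79 ± 0.14 in rsl mice and -3.20 ± 0.14 in wild type mice, 7.99-fold on average (limma adjusted p = 2.3e-05). A second Hoxa10 probe set was below background on every array and gives no level. Hoxa9 read 5.50 and 6.33 in rsl males and 5.62 and 5.73 in wild type males, against 8.60 and 8.68 in rsl females and 8.43 and 8.72 in wild type females. It was 7.02-fold lower in males (-2.81 ± 0.18, limma adjusted p = 0.000339), and its second probe set was lower by a smaller amount, -1.12 ± 0.07.

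Hoxa11, Hoxd10 and Hoxc9 were lower in males by smaller amounts. Hoxd10, a limb and spinal cord patterning gene, read 3.57 and 3.54 in rsl males and 3.41 and 3.47 in wild type males, all below background, against 4.40 and 4.41 in rsl females and 4.38 and 4.65 in wild type females. Set against the background bound, it was at least 1.56-fold lower in males (limma adjusted p = 0.000536). Hoxc9, a regulator of thoracic identity, read 6.08 and 6.32 in rsl males and 6.33 and 6.28 in wild type males, against 6.80 and 6.85 in rsl females and 6.70 and 6.73 in wild type females. Its groups did not overlap, and the difference was -0.52 ± 0.07 (limma adjusted p = 0.00392). Within strains it passed in rsl mice (-0.63 ± 0.09, adjusted p = 0.00988) and not in wild type mice (-0.41 ± 0.09, adjusted p = 0.0655). Hoxa11, known from limb, kidney and uterus, read 4.28 and 4.15 in rsl males against 4.94 and 4.86 in rsl females, and 3.79 and 3.62 in wild type males against 4.24 and 4.40 in wild type females. The sexes did not overlap within a strain, but rsl males and wild type females did. The difference was -0.69 ± 0.10 in rsl mice (limma adjusted p = 0.00886), and in wild type mice, whose males were below background, Hoxa11 was at least 1.47-fold lower in males (adjusted p = 0.0221). Hoxd11 also passed (adjusted p = 0.0269), with 3.12 to 3.26 in males and 3.34 to 3.46 in females, all below background, so it has no fold.

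**Figure D2:**
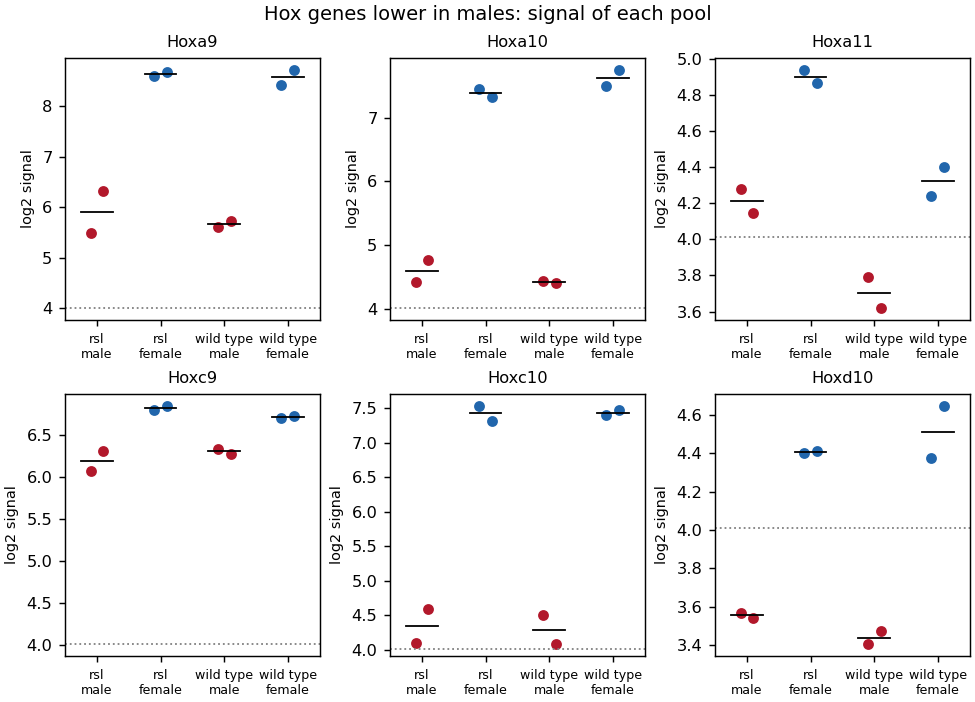
Log2 signal of each pool (points; bars are group means) for the 6 Hox genes above background that were lower in males (red) than in females (blue) in rsl and wild type mice. The dotted line is the highest background bound of any array, 4.01, and the axes differ between panels. Male and female points are apart in each strain. For Hoxa9, Hoxa10 and Hoxc10 the male minus female differences of group means run from -3.20 to -2.72 log2 units.

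Among the markers that were lower in males, those of skeletal muscle also differed between the 2 rsl female pools. Rsl female 2 had a muscle mean of 5.33 against 6.66 in rsl female 1, and the same pools read 8.68 and 8.60 for Hoxa9, 7.32 and 7.44 for Hoxa10 and 7.32 and 7.53 for Hoxc10. In the same order, their means were 8.13 and 8.05 for mesothelium, 9.12 and 9.35 for smooth muscle and 5.52 and 5.46 for brown fat. This is 1 pair of pools, and the part of muscle or of these other tissues in the Hox values was not tested. Pgr, the progesterone receptor, a marker of the uterus list, was also lower in males (4.36 and 4.35 in rsl, 3.90 and 3.84 in wild type) than in females (7.001 and 6.76 in rsl, 6.11 and 6.79 in wild type). The list as a whole (13 measured) averaged 5.62 and 5.32 in rsl males and 5.31 and 4.86 in wild type males, against 5.88 and 5.87 in rsl females and 5.03 and 5.09 in wild type females, with 9 to 12 markers above background in a pool. Averaged over strains 6 were lower and 1 higher in males (median -0.077). Pax8 went the other way from Pgr, with 7.72 and 6.50 in rsl males against 3.75 and 4.18 in rsl females. Sprr2f read 7.21 and 7.02 in rsl females and 3.19 to 3.54 in all other pools. Ltf read 7.60 and 7.26 in rsl females and 4.30 and 4.35 in wild type females. The part of such tissue in the Hox values was not tested.

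In the Hoxc cluster, Hoxc4, Hoxc5 and Hoxc8 were higher in males, next to Hoxc9 and Hoxc10, which were lower. Hoxc8, which patterns the thorax and is known as a marker of white fat precursors, read 10.2 and 10.8 in rsl males and 10.7 and 10.8 in wild type males, against 9.57 and 9.56 in rsl females and 9.71 and 9.68 in wild type females. Each male pool was above each female pool. The difference was 1.004 ± 0.13, or 2.00-fold (limma adjusted p = 0.00368), and it was 0.94 ± 0.18 in rsl and 1.07 ± 0.18 in wild type mice. Hoxc4, a cervical and forelimb-level gene, read 6.80 and 7.16 in rsl males and 7.59 and 7.78 in wild type males, against 5.78 and 6.04 in rsl females and 5.97 and 6.15 in wild type females. It was 2.54-fold higher in males (1.35 ± 0.11, limma adjusted p = 0.000758), with 1.07 ± 0.15 in rsl and 1.62 ± 0.15 in wild type mice. Hoxc5 read 7.12 and 7.88 in rsl males and 8.13 and 8.21 in wild type males, against 6.87 and 6.95 in rsl females and 7.31 and 7.46 in wild type females. Male and female pools overlapped across strains, the average passed (0.69 ± 0.15, adjusted p = 0.0261), neither strain passed alone, and its 2 dimmer probe sets did not pass. Hoxc6 differed by 0.04 ± 0.09 and Hoxc13 by -0.13 ± 0.08, and neither passed.

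In the Hoxb cluster, all 6 genes above background were higher in males. Hoxb6, which lies in the middle of the cluster, read 9.14 and 8.39 in rsl males and 7.67 and 6.51 in wild type males, against 5.26 and 5.32 in rsl females and 5.57 and 5.61 in wild type females. The male pools were spread widely, with rsl males highest, and all lay above the females. The difference was 2.49 ± 0.26, or 5.60-fold (limma adjusted p = 0.00216). Hoxb3 read 8.54 and 7.79 in rsl males and 7.61 and 7.17 in wild type males, against 6.22 and 6.11 in rsl females and 6.35 and 6.16 in wild type females (1.57 ± 0.17, adjusted p = 0.0025). Hoxb2, a hindbrain patterning gene, read 8.09 and 7.20 in rsl males and 7.01 and 6.59 in wild type males, against 5.70 and 5.995 in rsl females and 5.77 and 5.94 in wild type females (1.37 ± 0.20, adjusted p = 0.00665), although its dimmer probe set did not pass (0.15 ± 0.06). Hoxb9, Hoxb5 and Hoxb4 were higher in males by 1.33 ± 0.15, 1.16 ± 0.09 and 0.68 ± 0.14. Hoxb5 was the 1 Hoxb gene that passed within wild type mice (0.71 ± 0.13, adjusted p = 0.0305). The other 5 did not pass there, with male minus female differences of 0.32 to 1.501 (limma adjusted p from 0.057 to 0.488). For Hoxb4, wild type male 2 read 5.78 and wild type female 2 read 5.76. Its second probe set overlapped, with 4.77 in wild type male 2 and 4.79 in wild type female 2. Hoxb5os, a noncoding RNA that overlaps Hoxb5 and Hoxb6, showed the same pattern, with 9.25 and 8.38 in rsl males and 7.88 and 6.41 in wild type males, against 5.34 and 5.60 in rsl females and 5.43 and 5.62 in wild type females. Strand of the array probes was not checked here, so signal of overlapping genes may be shared.

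In the Hoxd cluster, Hoxd4 and Hoxd8 were higher in males on average, by the rsl males. Hoxd4, a hindbrain and neck gene, read 8.30 and 7.38 in rsl males and 6.42 and 6.03 in wild type males, against 5.98 and 5.74 in rsl females and 6.33 and 6.27 in wild type females. The rsl males stood above all other pools, while wild type males and females overlapped. The difference was 1.99 ± 0.28 in rsl mice (limma adjusted p = 0.00866) and -0.08 ± 0.28 in wild type mice (adjusted p = 0.937). Hoxd8 read 9.88 and 9.13 in rsl males and 8.78 and 8.34 in wild type males, against 8.23 and 8.16 in rsl females and 8.18 and 8.23 in wild type females, a difference of 1.31 ± 0.24 in rsl mice (adjusted p = 0.0184) and 0.36 ± 0.24 in wild type mice (adjusted p = 0.539). Hoxd9 read 8.74 and 7.99 in rsl males and 7.66 and 6.999 in wild type males, against 7.69 and 7.59 in rsl females and 7.69 and 7.65 in wild type females, and did not pass. Hoxd3 did not pass either (0.49 ± 0.16, adjusted p = 0.0807).

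**Figure D3:**
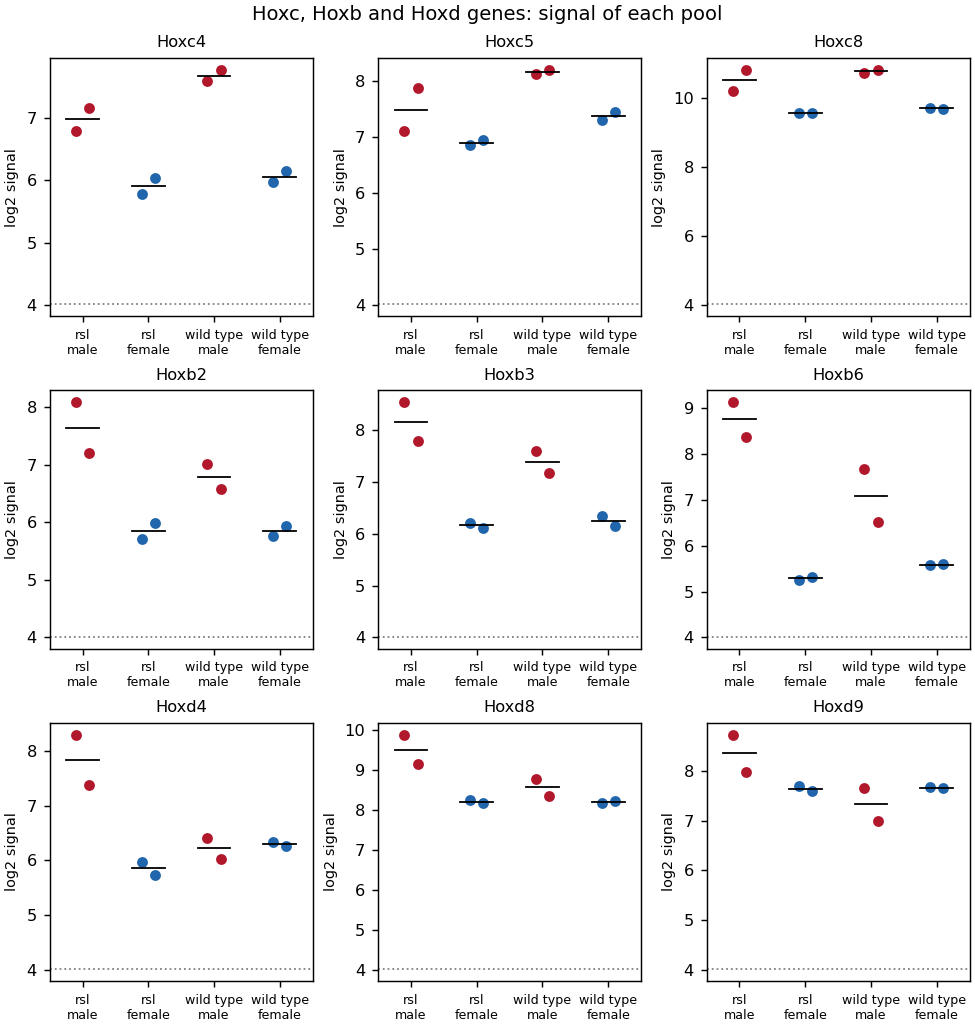
Log2 signal of each pool (points; bars are group means) for Hoxc, Hoxb and Hoxd genes in males (red) and females (blue) of rsl and wild type mice, with the highest background bound, 4.01, as a dotted line. Hoxc4 and Hoxc5 were highest in wild type males, and the Hoxb and Hoxd genes were highest in rsl males.

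Anterior Hoxa genes did not pass. Hoxa5, a gene known from fat and lung, read 6.59 and 6.87 in rsl males and 6.85 and 7.29 in wild type males, against 6.58 and 6.69 in rsl females and 6.90 and 7.11 in wild type females, and the sexes overlapped (0.08 ± 0.12, limma adjusted p = 0.699). Hoxa7 differed by 0.05 ± 0.12, Hoxa3 by 0.12 ± 0.08 and Hoxa2 by -0.05 ± 0.09. Hoxa4 was 0.26 ± 0.07 higher in males without overlap (adjusted p = 0.0557), from a probe set whose name marks probes that may cross-hybridise. So within the Hoxa cluster the step lay between Hoxa7 and Hoxa9, while Hoxb9 at the same paralog number as Hoxa9 moved the other way.

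Some Hoxb and Hoxd genes had the same order across the 4 male pools as the epididymis markers. The epididymis means fell in the order rsl male 1, rsl male 2, wild type male 1 and wild type male 2. Other list means fell in it too: mammary epithelium (5.93, 5.55, 5.39 and 4.86), uterus and oviduct, ovary, kidney and adrenal, and skin. The order is thus not particular to epididymis markers. It also puts both rsl pools before both wild type pools, so it cannot be told apart from strain. Hoxb2, Hoxb3, Hoxb5 and Hoxb6 and Hoxd3, Hoxd4, Hoxd8 and Hoxd9 had that order, and Hoxb4 and Hoxb9 did not. With Hoxd1 and Hoxd12, which were below background on every array, this makes 4 of 9 Hoxb and 6 of 9 Hoxd genes. The count was 1 of 10 Hoxa genes (Hoxa11) and 0 of 7 Hoxc genes, beside 10.8% of all genes, and no difference between clusters was tested. Hoxc4 and Hoxc5 were highest in wild type male 2, the male pool with the lowest epididymis mean. Wild type male 2 minus the mean of the wild type females, a single pool picked after seeing the data and so a difference with no test, was 1.72 for Hoxc4, 1.11 for Hoxc8, 0.92 for Hoxb6 and 0.92 for Hoxb3. It was -3.35 for Hoxc10, -3.21 for Hoxa10 and -2.85 for Hoxa9, and 0.14 for Hoxd8 and -0.27 for Hoxd4. Hoxd9 gave -0.67, but wild type male 1 read 7.66, within the range of the females, and the wild type comparison with both males gave -0.34 ± 0.28 (limma adjusted p = 0.627). A fit of this lone pool put 10 Hox genes higher and 7 lower (7.93% and 5.20% of all genes). It took its spread from females only, although wild type males varied more for some genes (Hoxb6 had an SD of 0.82 in wild type males against 0.03 in wild type females, n = 2 each), so these calls support nothing here. This pool still held epididymis RNA, with Crisp1, a sperm-coating protein, at 7.14 against 3.22 and 3.03 in wild type females, and of the male pools it had the highest means of liver markers (6.40) and of 16 testis and sperm markers (6.18, against 4.03 and 4.06 in wild type females). The part of these tissues in its differences was not tested.

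**Figure D4:**
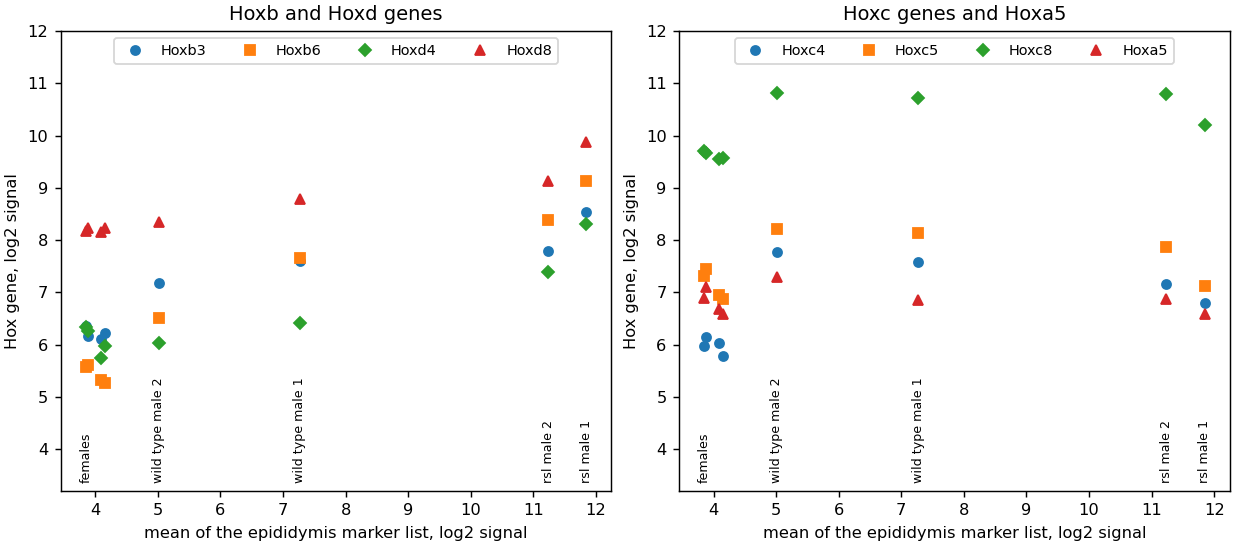
Log2 signal of 4 Hoxb and Hoxd genes (left) and of 3 Hoxc genes and Hoxa5 (right) in each pool, against the mean log2 signal of 16 epididymis markers in the same pool. The females stand at 3.85 to 4.15 on the horizontal axis. In the male pools the left-hand genes were higher at higher epididymis means, and Hoxc4 and Hoxc5 were lower.

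Between strains, no Hox gene passed. In males, rsl minus wild type gave 0 of 35 past the threshold (0.704% of all genes higher, 1.07% lower), with 14 higher and 4 lower at an unadjusted p under 0.05 in limma. The 14 include Hoxb1 and Hoxd1, which were below background on every array. The share of all genes at an unadjusted p under 0.05 was not computed for any comparison. Such counts, here and below, thus have no background to be read against. Of the genes above background, the values nearest to the threshold were Hoxd4 (1.62 ± 0.28, adjusted p = 0.0503), Hoxa11 (0.51 ± 0.10, adjusted p = 0.0605), Hoxb5 (0.62 ± 0.13, adjusted p = 0.0658), Hoxc4 (-0.70 ± 0.15, adjusted p = 0.0749) and Hoxb6 (1.67 ± 0.37, adjusted p = 0.0805). The median was 0.62 for Hoxb, 0.32 for Hoxd, -0.06 for Hoxa and -0.27 for Hoxc genes, beside 0.00 for all genes to 2 decimals (-0.001). Leaving out rsl male 2 gave 12 higher and 5 lower (7.17% and 12.2% of all genes), leaving out wild type male 1 gave 3 higher and 0 lower (1.83% and 2.57%), and leaving out rsl male 1 gave 1 higher and 0 lower (0.762% and 0.714%). With the first male pool of each strain left out, a setting chosen after seeing the data, 7 were higher and 2 lower (4.29% and 6.96% of all genes), with the spread taken from females only. In females it was 0 of 35 (0.154% and 0.111% of all genes), with 2 higher and 0 lower at an unadjusted p under 0.05, and differences ran from -0.48 (Hoxc5) to 0.58 (Hoxa11). The interaction, which asks whether the strains differed by another amount in males than in females, passed for 0 of 35 (0.0627% and 0.0386% of all genes), with 8 higher and 1 lower at an unadjusted p under 0.05. Of the 35, its size was largest for Hoxd4 (2.06 ± 0.40, limma adjusted p = 0.169) and Hoxb6 (1.97 ± 0.53, adjusted p = 0.279). Without rsl male 2 it passed for 9 genes, all higher (3.55% of all genes higher, 4.84% lower), and without wild type male 1 for 1, higher (0.583% and 0.482%). Signs of RNA integrity moved with strain among males: Gapdh 3' probe sets exceeded 5' ones by 0.79 and 1.03 in rsl and by 0.68 and 0.71 in wild type males. Their part was not tested.

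Among the partners of Hox proteins, Meis1 and Meis2 were lower in males, which makes 2 of 9 cofactors lower and 0 higher, beside 11.4% and 9.62% of all genes. Meis and Pbx proteins bind DNA together with Hox proteins. Meis2 read 7.43 and 7.48 in rsl males and 7.52 and 7.71 in wild type males, against 8.77 and 8.74 in rsl females and 8.77 and 8.79 in wild type females (-1.23 ± 0.06, limma adjusted p = 0.000141). Meis1 read 6.41 and 6.40 in rsl males and 6.94 and 7.20 in wild type males, against 7.40 and 7.47 in rsl females and 7.56 and 7.57 in wild type females (-0.76 ± 0.07, adjusted p = 0.00128). It was also the 1 of 9 cofactors lower in rsl than in wild type males (-0.67 ± 0.10, limma adjusted p = 0.0362), beside 1.07% of all genes lower in that comparison. The other 7 did not pass on average, with differences of 0.29 or less in size, and Pknox1 passed in rsl mice (0.50 higher in males). Of 17 transcripts within or beside the clusters, 2 were higher (Hoxb5os and Cbx5, a heterochromatin protein) and 2 lower in males, which is near the 9.62% and 11.4% of all genes. Hoxa11os, antisense to Hoxa11, was lower, with 3.06 to 3.24 in males, all below background, and 3.93 to 4.17 in females, and Mtx2, a mitochondrial protein gene beside Hoxd, differed by -0.42 ± 0.07. Of 23 cluster regulators 4 were higher and 4 lower, beside 9.62% and 11.4% of all genes. Among those that also passed within a strain were Ezh1 (0.37), Rnf2 (0.25) and Kdm6b (0.33), higher in males, and Cbx8 (-0.35) and Kdm6a (-0.62), lower in males, while Bmi1 was lower in rsl males than in rsl females (-0.40) and did not pass on average (-0.21). Kdm6a lies on the X chromosome and is known to escape X inactivation. Of 17 retinoic acid genes 4 were higher and 1 lower in males, beside the same shares of all genes. Aldh1a1, which makes retinoic acid, was 1.26 ± 0.08 higher in males, and Rdh10 was 0.33 ± 0.09 lower. Of 11 genes of posterior body growth, Acvr2a alone passed (-0.44 in males), 1 of 11 lower beside 11.4% of all genes.

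Of 38 other genes known for fat depot position, 3 were higher and 8 lower in males (9.62% and 11.4% of all genes), with a median difference of -0.02. Wt1 and Bnc1, transcription factors of visceral fat and its mesothelium, were lower in males. Wt1 read 4.94 and 5.33 in rsl males and 5.42 and 5.82 in wild type males, against 7.03 and 6.91 in rsl females and 7.45 and 7.35 in wild type females (-1.81 ± 0.12, limma adjusted p = 0.00039). Bnc1 differed by -1.69 ± 0.12, and the mesothelium list, to which both belong, was lower in males too. Osr1, Tbx18, Meox2, Dmrt2, Isl1 and Shox2 were also lower, by -1.10 to -0.24, and in rsl males Meox2 and Tbx18 were lower than in wild type males (-1.58 ± 0.21 and -1.41 ± 0.19). Shox2, known from subcutaneous fat, lay near background at 3.96 to 4.13 in males and 4.32 to 4.62 in females. Gpc4, known to be higher in visceral fat, was 0.43 ± 0.08 higher in males, and Irx2 and Sim1, which were near or below background in females, were also higher. Nr2f1 and Thbd, also known from visceral fat, differed by 0.04 ± 0.14 and 0.04 ± 0.22. Sfrp2 and Twist1, known from subcutaneous fat, differed by -0.79 ± 0.27 and -0.76 ± 0.23 and did not pass (adjusted p = 0.0904 and 0.0692). En1, Tbx15, Lhx8, Zic1, Pax9, Irx5, Gsc and Tbx4 were not above background in any group. Nr2f2, Tcf21, Irx1, Irx3, Foxf1, Gata4, Emx2, Tbx3, Tbx5, Pax3, Barx1, Epsti1, Meox1 and Prrx1 did not pass, with differences from -0.52 (Prrx1) to 1.14 (Emx2) averaged over strains. Prrx1 passed within wild type mice, where it was lower in males (-1.07 ± 0.22, limma adjusted p = 0.0453), against 0.03 ± 0.22 in rsl mice.

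**Figure D5:**
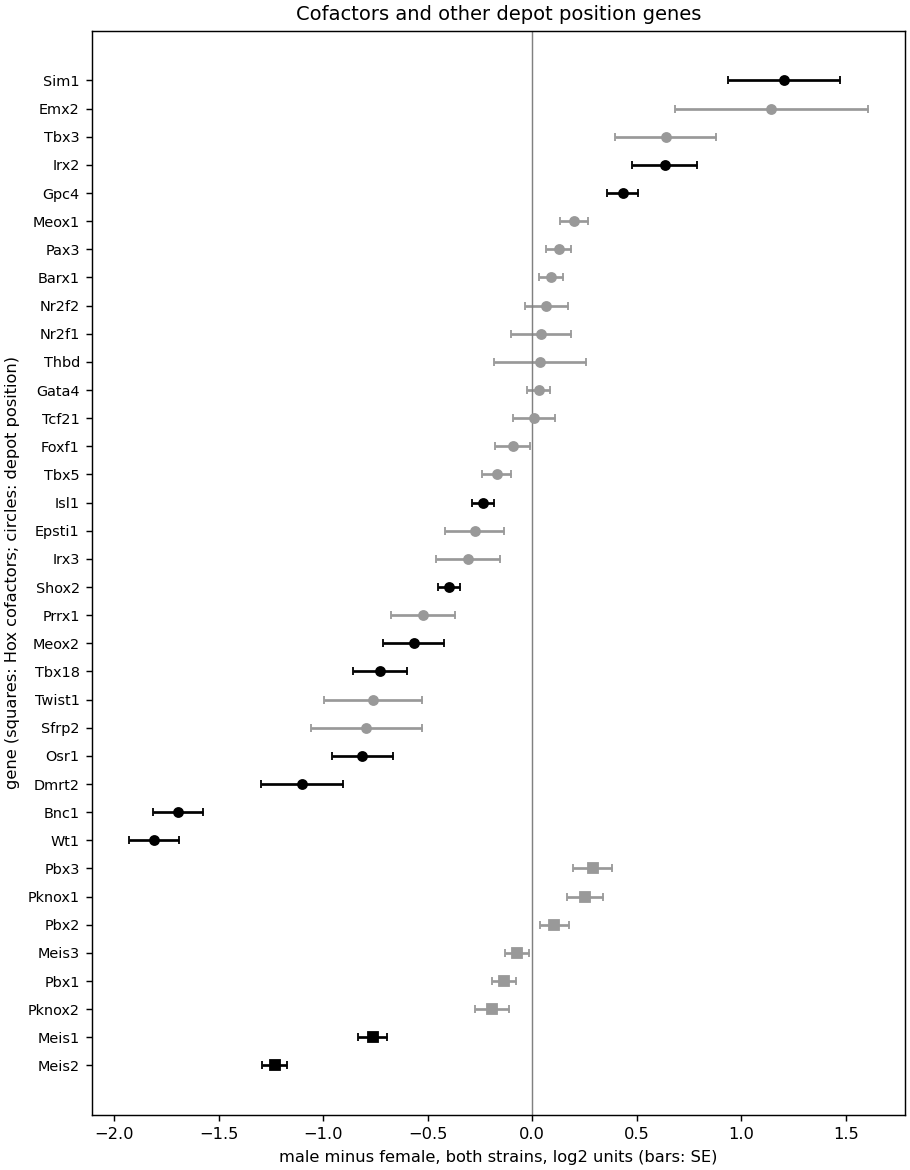
Male minus female difference averaged over strains (log2 units, bars are SE) of Hox cofactors (squares) and other genes known for depot position (circles), among those above background on at least 4 of 8 arrays. Black marks passed an adjusted p of 0.05 and grey ones did not. Wt1 and Bnc1 lie farthest to the left at -1.81 and -1.69, and Meis2 is the lowest cofactor at -1.23.

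Some calls for the Hox genes rested on single arrays. With any 1 array left out, the count for the sexes averaged over strains was 13 to 20, beside 7.71% to 31.3% of all genes in either direction. Hoxb4, Hoxc5, Hoxd4 and Hoxd8 lost their call without any 1 of the female arrays (adjusted p from 0.064 to 0.101), Hoxc5, Hoxd4 and Hoxd8 without wild type male 1 (0.0595, 0.0572 and 0.0511) and Hoxc5 without wild type male 2 (0.058). Within wild type mice 4 Hox genes passed when 1 wild type female was left out (0.448% or 0.646% of all genes), 5 when 1 rsl female was (2.12%), and 14 when 1 rsl male was (10.6%), whichever of the pair it was. Within rsl mice 6 passed without rsl female 1 (2.07%) and 4 without rsl female 2 (1.70%).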

How the data were processed

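Pooled adipose RNA was read on Affymetrix mouse PM array strips. Each array was deposited as log2 values, 1 for each probe set, after RMA (robust multi-array average) by the authors, per the submitters' processing notes. The RMA version is not given in the sources used here. The other deposited unit is annotation text of the authors' results table (symbol, accession, title). That table's 8 value columns match no sample label and were not used.

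Of 45141 probe sets, 104 controls were set aside and 45037 tested. A single symbol was present for 38367, of which 2885 were updated through the RefSeq table of GRCm38.p6. Hox genes were taken by deposited symbol. Background was the highest of 22 non-specific controls (GC counts 3 to 24), and the control of GC count 25 was dropped once its high values had been seen. Where no array of a group exceeded it, folds use that bound in place of the level ("at least").

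All 8 arrays entered 1 linear model with a mean for each of the 4 groups (limma 3.58.1, R 4.3.3), unfiltered, with 4 residual and 3 prior degrees of freedom, and 6 contrasts. Two-sided p-values were adjusted by Benjamini-Hochberg over all probe sets tested (threshold 0.05). The procedure was run on simulated data with 1 noise level per group, shared by all probe sets. The spread on the arrays differs between genes, so this run does not test the calls made here. Errors are SE or SD. Arrays have no read depth, and their number limits the precision. The members, 6 pathway lists, 16 marker lists and tests were chosen with earlier results of these data known. Genes named are Hox genes, pathway list members past the threshold for sex within a strain, depot position genes above background, and markers that define a list; a few genes these rules would name are not reported here. Alternatives were other fits, scalings, filters, probe sets and left-out arrays.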

Additional observations from a re-analysis of the deposited data

How the results depend on the processing

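For the sexes averaged over strains, the 27 Hox genes above background gave 405 pairs of a gene and an alternative, of which 376 stayed on their side of the threshold, 20 were no longer past it, 9 were newly past it and 0 reversed. Leaving out 1 array gave 13 to 20 Hox genes for the sexes averaged over strains (18 with all arrays), 4 to 14 in wild type (8), 4 to 19 in rsl (17), 0 to 17 for rsl minus wild type in males (0), 0 to 0 for it in females (0) and 0 to 9 for the interaction (0). A fit of only the groups compared gave 13 in wild type and 11 in rsl for the sexes, and 3 for rsl minus wild type in females, and array weights gave 14 and 1 for wild type sexes and for the strains in females. In males the strain count was 2 with the replicate number as a block, and 1 with an intensity trend, with dim probe sets left out or with median centring. The block moved no other count by over 1.5 times. Deviations of same-numbered arrays from their group means correlated at 0.346 between wild type and rsl males and at -0.048 to 0.115 between the other groups. Whether the replicate numbers pair the male arrays was therefore not settled. Of settings chosen after seeing the data, wild type male 2 alone gave 17 for wild type sexes, and leaving out the first male pool of each strain gave 17 there, 9 for the strains in males, 3 in females and 7 for the interaction. Both take their spread from females only. The causes were not tested. The share of all genes called also moved with the setting. For wild type sexes it ran from 0.448% to 10.6% with 1 array left out. It was not computed for the fit of only the groups compared, array weights, the block, the trend, the filter or the scalings. The counts under those settings thus show how calls move and nothing particular to Hox genes. Quantile normalization and counting any probe set of a gene stayed within 1.5 times of each count. Probe sets near background limit what can be seen of 8 Hox genes.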
